A study of Mus musculus with 2 samples.

Results

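The genes examined were 10 of the 21887 protein-coding genes of the mouse annotation (GRCm38.p6), chosen by name as the core of MHC class I antigen presentation: H2-K1, H2-D1, B2m, Tap1, Tap2, Tapbp, Psmb8, Psmb9, Nlrc5 and Cd274. Each gene was taken with 20 kb on either side, and all 10 were found in the annotation. The assay was ATAC-seq, where Tn5 transposase cuts and tags DNA that is not packed away, and the cells were AB22, a murine malignant mesothelioma line. Both lines carried the viral vector pTRIPZ, which expresses a short hairpin under doxycycline. The hairpin was a control in shCTRL and targeted Hmgb1, the gene of an abundant DNA-bending chromatin protein, in shHMGB1. Both groups were infected at a multiplicity of 20, selected with 4 μg/mL puromycin, kept at 37°C and 5% oxygen, given 1 μM doxycycline and used 7 to 10 days later, and the irradiation dose field is a dash for both. The labels do not say whether the lines were single clones or how far HMGB1 had fallen. Each group was a single library, so replicate error is unknown and p-values are not given. RNA was not analysed here, so the values below are accessibility and not expression.

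MHC class I molecules show peptides from inside the cell to CD8 T cells. A heavy chain, such as the products of H2-K1 and H2-D1, pairs with the light chain beta-2 microglobulin. Peptides are cut by proteasomes, which take up special catalytic subunits under interferon gamma, are pumped into the endoplasmic reticulum by the TAP transporter, and are loaded with the help of tapasin. The class I promoters share an upstream module in which the X box is bound by RFX and CREB family factors and the Y box, a reversed CCAAT sequence, by NF-Y, and on which the coactivator NLRC5 acts. Tumour cells often lower this pathway, and many display PD-L1, the product of Cd274, which restrains T cells.

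The size of an open site is given as its summit pileup, the number of fragments over its highest position, recovered from the deposited folds. A pileup belongs to a position and not to a gene, so it does not depend on gene length. The peak caller's expected pileup, the background below, stood at 2.79 fragments for shCTRL and at 1.68 for shHMGB1. The lowest pileup listed was 10 and 7. A height is the pileup divided by this background. Ratios between the libraries are log2 values of shHMGB1 over shCTRL relative to the median of 11316 coding genes with matched start summits, whose pileups had a median of 45 and 38. Relative to the background of each library that median itself stood at 0.52. All intervals are 95% intervals of counting error alone.

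The cells had few open markers of leukocytes. Of 9 leukocyte markers, Spi1 (14 and 10) had a start-site peak in both libraries, Csf1r (18) and Cd68 (14) had one in shCTRL alone, Lyz2 (11) had one in shHMGB1 alone, and the pan-leukocyte gene Ptprc and the other 4 had none. The highest of these pileups in each library was 18 in shCTRL and 11 in shHMGB1. Of 10 mesothelial markers 2 were open in both libraries, 4 in shCTRL alone and 4 in neither, the last being Upk1b, Upk3b, Krt8 and Krt18. Of 7 fibroblast and mesenchymal markers 6 were open in both, and Pdgfra (9) in shHMGB1 alone. For comparison, 52.9% of all coding genes were open in both libraries and 40.2% in neither. Another 5.48% were open in shCTRL alone and 1.37% in shHMGB1 alone. The part of any admixed cells in the results below was not tested.

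Every class I pathway gene was open at its start in both libraries, and no measured ratio relative to the median gene reached 1.5-fold. All 10 genes had a peak within 1 kb of a start site in both libraries. Among all coding genes this was so for 52.9%, while 40.2% were open in neither, 5.48% only in shCTRL and 1.37% only in shHMGB1. The 10 genes rested on 9 distinct pairs of summits, because Tap1 and Psmb9 share one. Of the 10 genes 0 reached a 1.5-fold difference in either direction. Of coding genes 3.97% were higher by this much in shHMGB1 and 8.4% were lower. At shares this low, 0 of 10 does not set these genes apart. The interval left out 0 at 0 of 10 genes, against 6.08% of coding genes above 0 and 2.19% below. Relative to genes of the same height, 1 gene (Nlrc5) passed 1.5-fold upward and 0 downward, against 5.04% and 4.37% of coding genes, and again 0 intervals left out 0, against 2.6% above and 2.19% below. The median of the 9 distinct ratios was -0.03, and the genes ranged from -0.26 at Tapbp to 0.52 at Psmb8. These signs were not stable: with all summits of a start peak summed, the sign turned at 5 genes, to -0.02 at H2-K1, 0.39 at B2m, 0.04 at Tapbp, -0.30 at Nlrc5 and 0.27 at Cd274. On these sums 2 of 10 intervals left out 0, H2-D1 below (-0.43, -0.75 to -0.12) and B2m above (0.39, 0.08 to 0.71), against 21.7% of coding genes below and 21.4% above. A fragment over several summits enters a sum more than once, so these intervals are too narrow, and a sum also moves with the number of summits called. The intervals were wide: that of H2-D1 alone, -0.54 to 0.37, excluded a 1.5-fold difference both ways.

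**Figure D1:**
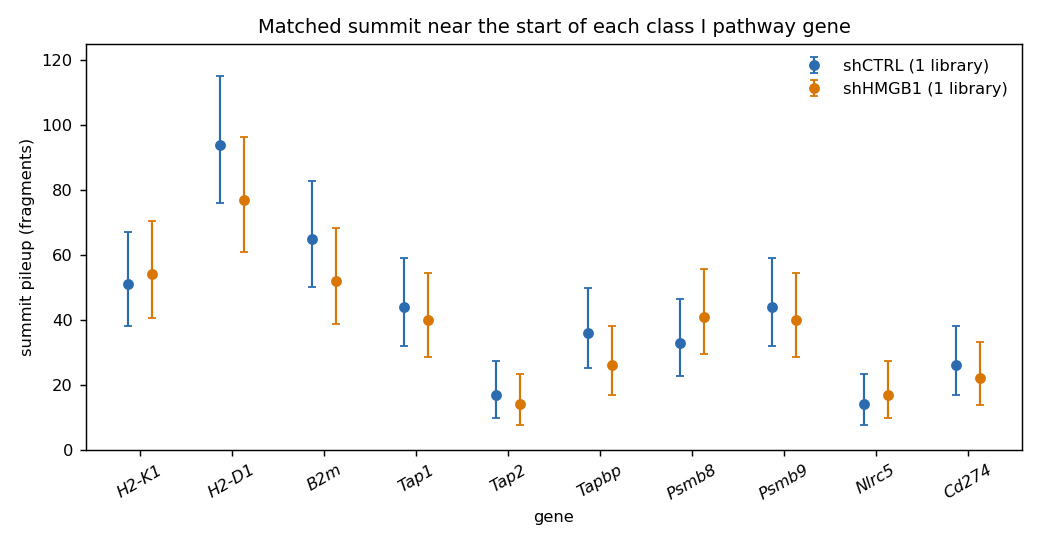
Summit pileup in fragments (vertical axis) at the matched summit near the start of each of the 10 genes (horizontal axis), in the single shCTRL library and the single shHMGB1 library. Bars are exact Poisson 95% intervals of counting error, and they overlap between the libraries at every gene, with H2-D1 highest (94 and 77) and Nlrc5 (14 and 17) and Tap2 (17 and 14) lowest.

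**Figure D2:**
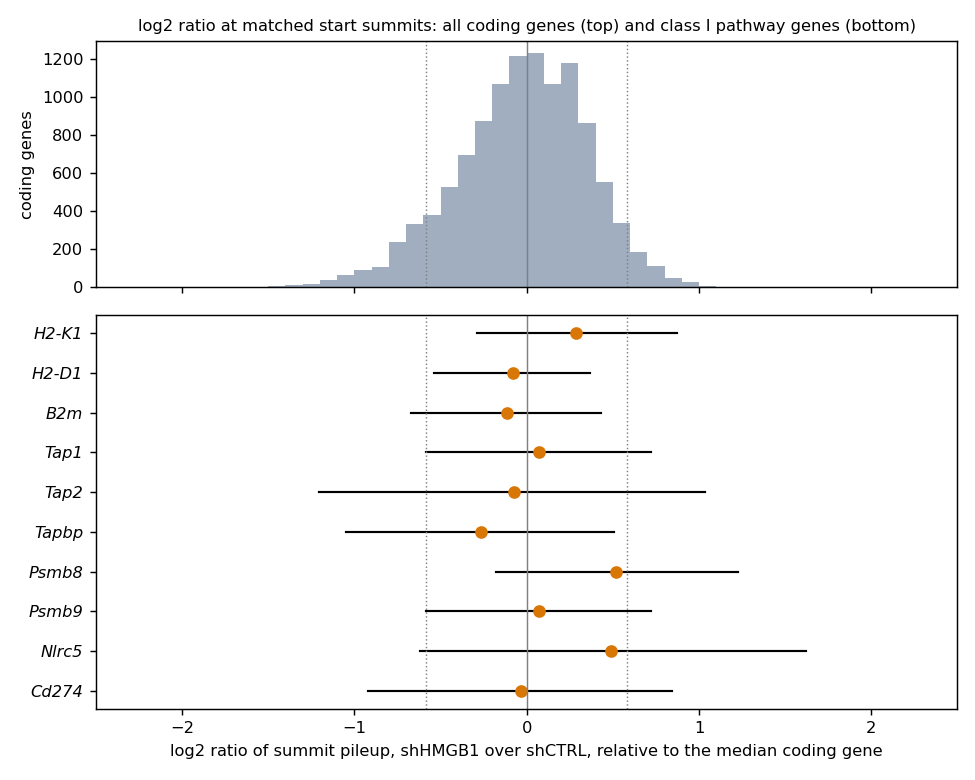
Top, number of coding genes by the log2 ratio of shHMGB1 over shCTRL at matched start summits, relative to the median gene. Bottom, the same ratio (points) for the 10 genes with 95% intervals of counting error (lines). The dotted lines mark 1.5-fold. All 10 points lie between the dotted lines, from -0.26 to 0.52, and every interval includes 0.

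The heavy-chain and light-chain promoters are shown first because they carried the highest start summits of the pathway and hold the module described above. The stretches are the 250 bases before the RefSeq start, 5′ to 3′ along the gene (RefSeq, GRCm38.p6): H2-K1 at chr17:34000348-34000597 on the minus strand, H2-D1 at chr17:35262844-35263093 on the plus strand and B2m at chr2:122147437-122147686 on the plus strand. The H2-K1 stretch lies within the annotated extent of its own gene, and that of B2m lies within Patl2. Capitals mark matches on either strand to GAANNGAAA or its longer form, GAAA repeated after any 2 bases (cores of the interferon-stimulated response element, ISRE), to GGGA and CC with any 4 bases between (a loose NF-kappaB pattern), TGACG (the core of the CRE, bound by CREB) and CCAAT, which reads ATTGG when reversed. Overlapping matches are merged.
H2-K1: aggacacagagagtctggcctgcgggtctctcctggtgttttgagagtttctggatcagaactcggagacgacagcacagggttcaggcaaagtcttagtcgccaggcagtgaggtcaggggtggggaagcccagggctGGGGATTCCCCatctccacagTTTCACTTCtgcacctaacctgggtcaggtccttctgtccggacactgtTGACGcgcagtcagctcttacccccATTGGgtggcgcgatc
H2-D1: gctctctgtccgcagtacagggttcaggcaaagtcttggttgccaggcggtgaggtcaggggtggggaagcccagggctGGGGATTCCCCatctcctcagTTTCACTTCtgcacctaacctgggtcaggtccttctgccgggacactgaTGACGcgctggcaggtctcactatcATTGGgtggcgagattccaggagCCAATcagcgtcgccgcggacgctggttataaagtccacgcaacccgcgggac
B2m: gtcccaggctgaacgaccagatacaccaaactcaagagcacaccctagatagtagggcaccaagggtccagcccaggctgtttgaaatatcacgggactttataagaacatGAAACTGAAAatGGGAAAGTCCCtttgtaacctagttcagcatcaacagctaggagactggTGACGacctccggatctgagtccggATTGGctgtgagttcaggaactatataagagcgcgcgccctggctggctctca

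In all 3 of these promoters TGACG was followed, after 20 bases, by ATTGG. Among the 300-base windows of 21263 coding-gene promoters, which reach 50 bases past the start, 29 (0.136%), from 25 genes, held this spacing on either strand. One of the other genes was H2-M3, a further class I gene, while Tap1 and Psmb9 held TGACG but not the spaced pair. This spacing was noticed in the 3 promoters before it was counted. Single motifs were common: TGACG stood in 5 of the 8 genes with a promoter entry and in 23.6% of all promoters, CCAAT in 6 of 8 and in 38.2%, GGGCGG, the Sp1 box, in 4 of 8 and in 46.2%, and the loose NF-kappaB pattern in 3 of 8 and in 23%. The longer ISRE core was found in B2m alone (3.35% of all promoters), as was a stricter NF-kappaB pattern with TTTCC at its end (0.423%). The shorter core GAANNGAAA was found in H2-K1 and H2-D1 (6.96%). The full CRE TGACGTCA was found in none of the 8 (2.23%). A match is a description of the letters and not evidence of binding. Over 190 aligned bases the H2-K1 and H2-D1 stretches were 91.6% identical.

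H2-D1 encodes a classical class I heavy chain (gene 14964, chromosome 17, 35263094 to 35267497). Its start summit held 94 fragments in shCTRL (interval 76.0 to 115.0) and 77 in shHMGB1 (60.8 to 96.2), the highest of the 10 genes in both libraries. The 2 summits lay 48 and 63 bp upstream of the start, beside the CCAAT boxes in the sequence above. The ratio was -0.08 (-0.54 to 0.37). A second strong site lay 3808 bp upstream in shCTRL, outside any coding gene, with 64 fragments and 51 at its counterpart (-0.12, -0.68 to 0.43). At these summits the difference was within counting error. Summed over the 9 summits called in shCTRL and the 5 in shHMGB1, the pileups came to 235 and 135 (-0.43, -0.75 to -0.12). Summits of 1 peak share fragments, so this interval is too narrow, and the sum moves with the number of summits. On such sums 21.7% of coding genes had an interval below 0.

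H2-K1, the other classical heavy chain gene (gene 14972, chromosome 17, 33996012 to 34000619), was lower at its start. It held 51 fragments in shCTRL (38.0 to 67.1) and 54 in shHMGB1 (40.6 to 70.5), with a ratio of 0.29 (-0.29 to 0.87). The summits lay 17 and 60 bp upstream of the outermost RefSeq start, on either side of the TGACG match. In shCTRL the interval of H2-K1 did not overlap that of H2-D1, and in shHMGB1 it did. Reads from similar class I genes may have been assigned to the wrong copy, which was not examined. The reference is from C57BL/6J, while the labels do not give the strain of the line. The levels of H2-K1 and H2-D1 are therefore uncertain.

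B2m, the light chain gene (gene 12010, chromosome 2, 122147687 to 122153082), held 65 fragments in shCTRL (50.2 to 82.8) and 52 in shHMGB1 (38.8 to 68.2). The ratio was -0.12 (-0.67 to 0.43). The start peak had 4 summits in shCTRL and 5 in shHMGB1, of which the 2 highest in each library lay before the start. The upstream one lay 138 bp from the start in shCTRL and 127 bp in shHMGB1, over the neighbouring GAAACTGAAA and GGGAAAGTCC matches, which span 139 to 118 bp upstream. The one near the start, at 33 bp in shCTRL, held 50 and 51 fragments (0.24, -0.36 to 0.83). Inside the gene further summits held 32 and 32 fragments at 175 bp and 20 and 20 at 287 bp. Summed over these summits, the pileups came to 167 and 170 (0.39, 0.08 to 0.71). This interval too is too narrow, since the summits share fragments. On such sums 21.4% of coding genes had an interval above 0. The highest summit of the B2m window was not its own: 79 and 69 fragments stood 16835 bp from the B2m start, within the overlapping annotated extents of Trim69 and Patl2, with a ratio of 0.01 (-0.48 to 0.50).

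The genes for cutting and transporting peptides lie side by side on chromosome 17, in the order Psmb9, Tap1, Psmb8 and Tap2. Psmb9 and Psmb8 encode catalytic subunits of the immunoproteasome, and Tap1 and Tap2 the pair of subunits of the peptide transporter. Psmb9 (gene 16912, 34182030 to 34187330) and Tap1 (gene 21354, 34187556 to 34197225) face away from each other across the stretch chr17:34187331-34187555, printed here in the direction of Tap1 because 1 open site lies near both starts. Capitals mark CCAAT, the Sp1 box GGGCGG (here read as CCGCCC) and TGACG.
Tap1 and Psmb9: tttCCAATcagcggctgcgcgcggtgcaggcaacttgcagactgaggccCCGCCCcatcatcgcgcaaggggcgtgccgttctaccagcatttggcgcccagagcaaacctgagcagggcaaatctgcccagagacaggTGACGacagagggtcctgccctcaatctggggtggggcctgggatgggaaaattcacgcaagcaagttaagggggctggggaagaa

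The shared summit held 44 fragments in shCTRL (32.0 to 59.1) and 40 in shHMGB1 (28.6 to 54.5). The summits lay 65 and 62 bp from the Psmb9 start and 161 and 164 bp from that of Tap1. The ratio was 0.07 (-0.59 to 0.72), at percentile 51.0 of height among all matched start summits, so the site was of average size. A further summit 245 bp inside Tap1 held 36 fragments in shCTRL and 23 in shHMGB1 (-0.44, -1.26 to 0.35).

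Psmb8 (gene 16913, 34198195 to 34201454) had its highest site before the start and not over it. The summit held 33 fragments in shCTRL (22.7 to 46.3) and 41 in shHMGB1 (29.4 to 55.6), at 516 and 514 bp upstream and 454 bp from the annotated end of Tap1. Its ratio of 0.52 (-0.18 to 1.23) was the highest of the 10 genes and included 0. Over the start itself shCTRL listed a peak of 16 fragments, 19 bp inside the gene, and another of 16 at 311 bp, and neither had a counterpart in shHMGB1. Within 1 kb of the start there were 5 peaks in shCTRL and 1 in shHMGB1.

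Tap2 (gene 21355, 34204479 to 34216321) had no promoter entry, so both annotated ends were used. The matched summit held 17 fragments in shCTRL (9.9 to 27.2) and 14 in shHMGB1 (7.7 to 23.5), at 712 and 756 bp outside the lower-coordinate end. It stood at percentile 8.27 of height over both libraries, the lowest of the 10 genes, although Nlrc5 was lower in shCTRL. The ratio was -0.07 (-1.21 to 1.03). Nearer that end, 15 bp outside it in shCTRL, a pair of summits held 16 and 10 fragments (-0.47, -1.77 to 0.76). A much stronger site lay inside the gene, 5502 bp from its higher-coordinate end, with 64 and 55 fragments (-0.01, -0.56 to 0.53). A shoulder of the same peak, whose summits lay at 34210616 in shCTRL and 34210738 in shHMGB1, held 32 and 46 (0.73, 0.05 to 1.43), the single site around the 10 genes whose interval lay above 0. At 1344 bp outside the lower-coordinate end the order was reversed, with 35 fragments in shCTRL and 10 in shHMGB1 (-1.6, -2.78 to -0.56). These last sites were chosen after their values were seen.

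Tapbp encodes tapasin, which holds the class I molecule to the transporter (gene 21356, chromosome 17, 33919478 to 33929290). Nearest its RefSeq start the summits were weak, 17 fragments in shCTRL and 14 in shHMGB1. The highest matched summit within 1 kb lay 920 and 922 bp inside the gene and held 36 fragments in shCTRL (25.2 to 49.8) and 26 in shHMGB1 (17 to 38.1). The ratio of -0.26 (-1.05 to 0.50) was the lowest of the 10 genes. The strongest sites of the window belonged to neighbours: 82 and 79 fragments at 209 bp from Zbtb22 (0.15, -0.31 to 0.62), and 65 and 51 at 119 bp from Daxx (-0.14, -0.70 to 0.41). The neighbour Rgl2 was lower in shHMGB1, with 32 and 14 fragments at 5 bp outside its annotated extent (-0.99, -2.01 to -0.04).

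Nlrc5, the coactivator of the pathway (gene 434341, chromosome 8, 94434335 to 94527272), was among the least open. Its matched summit held 14 fragments in shCTRL (7.7 to 23.5) and 17 in shHMGB1 (9.9 to 27.2), at 32 and 31 bp inside the lower-coordinate end. The ratio was 0.49 (-0.62 to 1.62). Relative to genes of the same height it stood at 0.82 (-0.29 to 1.95), past 1.5-fold but with an interval that included 0. No promoter entry gave its strand, so both ends were used. Inside the gene, 34690 bp from the higher-coordinate end, a site held 23 and 22 fragments (0.14, -0.77 to 1.05). At 35093 bp from that end 28 fragments in shCTRL stood against 9 in shHMGB1 (-1.43, -2.70 to -0.31). The next highest summits of the window lay at the neighbour Cpne2, with 24 and 21 fragments 303 bp inside it (0.01, -0.90 to 0.92) and 24 and 16 at 525 bp outside it (-0.38, -1.39 to 0.59).

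Cd274 encodes the checkpoint ligand PD-L1 (gene 60533, chromosome 19, 29362107 to 29388095), and its RefSeq promoter, chr19:29367188-29367437 on the plus strand, lies within the annotated extent. It is shown because it was open at a lower level than a site upstream. The capitals mark GGGCGG, the single match among the motifs searched.
Cd274: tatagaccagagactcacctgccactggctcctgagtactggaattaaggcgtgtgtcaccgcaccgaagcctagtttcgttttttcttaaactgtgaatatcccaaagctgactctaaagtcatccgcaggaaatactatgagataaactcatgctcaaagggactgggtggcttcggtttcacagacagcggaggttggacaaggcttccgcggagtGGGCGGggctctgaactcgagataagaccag

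The summit over this promoter held 26 fragments in shCTRL (17 to 38.1) and 22 in shHMGB1 (13.8 to 33.3), at 40 and 31 bp before the start, with a ratio of -0.03 (-0.92 to 0.84). The site at the outer annotated end of the gene, 5512 bp upstream of the start in shCTRL, held 77 and 83 fragments (0.31, -0.15 to 0.78). It also lies within the annotated extent of the neighbour Plgrkt, and which gene it serves cannot be told from these files. The site that was second highest in shCTRL, also in Plgrkt at 11697 bp upstream, held 31 and 19 fragments (-0.50, -1.41 to 0.37), and in shHMGB1 the promoter summit was above it. The neighbouring ligand gene Pdcd1lg2 had no start-site peak in either library.

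**Figure D3:**
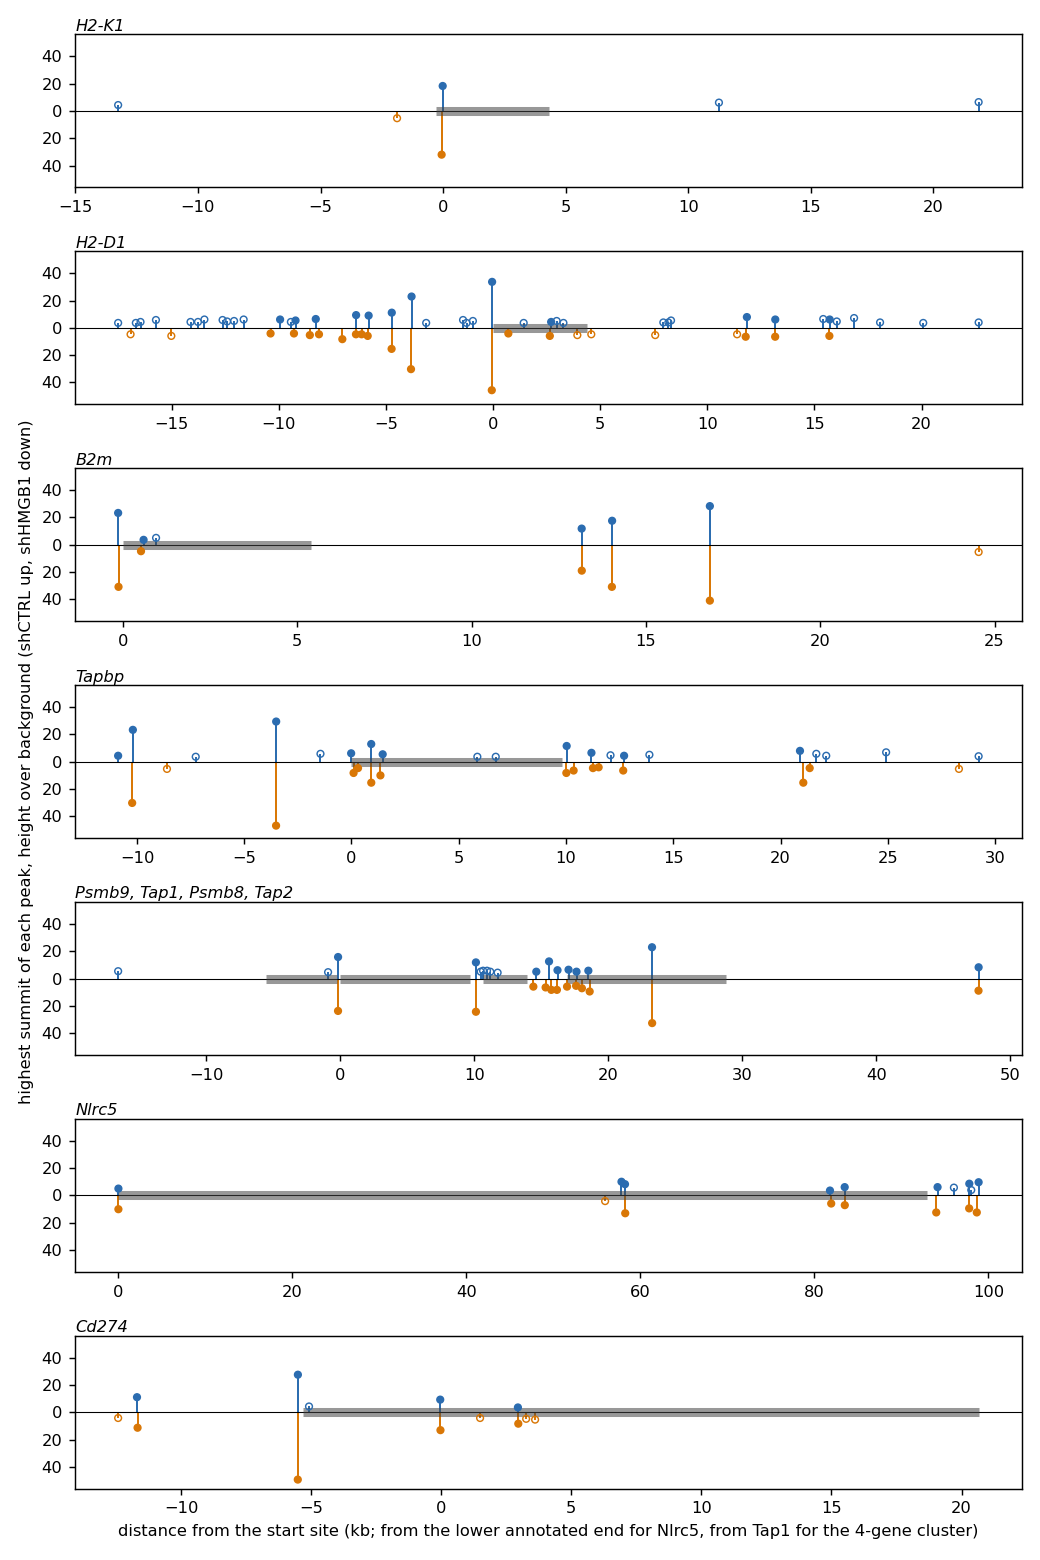
Highest summit of each listed peak as height over background (vertical axis, shCTRL upward and shHMGB1 downward) against the distance in kb from the start site (horizontal axis). There are 7 panels because Psmb9, Tap1, Psmb8 and Tap2 share one. Grey bars are the annotated genes, filled points overlap a peak of the other library and open points do not. Tall sites are filled in every panel, and the open points, most of them in the H2-D1 panel, are low.

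Around the genes, the strong sites were found in both libraries and the weak ones mostly in shCTRL. The 10 windows merge into 7 stretches of 457 kb in all, and held 102 peaks in shCTRL and 73 in shHMGB1. Of the shCTRL peaks 49.0% (exact Clopper-Pearson interval 39.0 to 59.1) overlapped a shHMGB1 peak, against 60.1% of all shCTRL peaks. For shHMGB1 the share with a counterpart was 79.5% (68.4 to 88.0) around the genes and 69.0% overall. Every peak with a deposited −log10 q of at least 10, 28 in shCTRL and 21 in shHMGB1, had a counterpart among the listed peaks, much as in the genome, where 99.4% of such shCTRL peaks and 98.9% of such shHMGB1 peaks had one. Peaks without one had a median pileup of 13 in shCTRL (52 peaks, at most 20) and 9 in shHMGB1 (15 peaks, at most 10).

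The windows went the other way from the genome among stronger peaks. With a height of at least 5 times the background the windows held 68 peaks in shCTRL and 55 in shHMGB1, while the genome held 64538 and 77309. At a −log10 q of 10 or more the genome held 30783 and 32327. Because both libraries were single, neither contrast has a test.

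The excess in shCTRL was largest around H2-D1. Its window held 40 peaks covering 11623 bp in shCTRL and 22 covering 5047 bp in shHMGB1, and 28 of the 40 had no counterpart. Without this window the others held 62 and 51 peaks, and the shCTRL share with a counterpart was 61.3%. Its strongest peaks of shCTRL alone stood at 16850 bp from the H2-D1 start (20 fragments) and at 15410 bp (18), and 4 of 16 or 17 fragments lay within the neighbour Ddx39b. The other windows held 20 and 15 peaks at Tapbp, 16 and 12 at Tap2, 16 and 11 at Tap1, 15 and 11 at Psmb8, 15 and 10 at Psmb9, 10 and 8 at Nlrc5, 6 and 6 at B2m and 4 and 2 at H2-K1. Cd274 alone had more in shHMGB1, 5 against 8. Among peaks with at least 15 fragments, those lacking a counterpart numbered 17 of 58 for shCTRL (29.3%, against 13.6% in the genome) and 0 of 26 for shHMGB1 (against 3.03%). The same pileup is a lower height in shCTRL than in shHMGB1, because the background differs. Of the 17, 8 lay around H2-D1, 3 each around Tapbp and the Psmb9 to Tap2 cluster, 2 around H2-K1 (18 and 17 fragments) and 1 beside Nlrc5 (16).

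Beyond its own window every gene but Cd274 was also surrounded by more peaks in shCTRL. H2-K1, Tapbp and the Psmb9 to Tap2 cluster lie within 500 kb of each other. Their surroundings overlap and take in windows of one another, so these counts and neighbour medians are not separate observations. Within 500 kb of each gene, leaving out its window, 178 peaks were listed for shCTRL and 128 for shHMGB1 around H2-D1, a ratio of 1.39, 138 and 90 around H2-K1 (1.53), and 119 and 79 around Tapbp (1.51). Around Psmb9, Tap1, Psmb8 and Tap2 the ratio was 1.54, 1.58, 1.62 and 1.625. Around Nlrc5 it was 1.32, around B2m 1.15 and around Cd274 0.82, and the whole lists stood at 1.13. The start summits of other coding genes within 500 kb had a median ratio of -0.13 around H2-D1 (30 genes) and -0.14 around H2-K1 (26 genes), 0.01 around B2m and Nlrc5 and -0.02 around Cd274. The part of this regional difference in the peak counts was not tested.

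**Figure D4:**
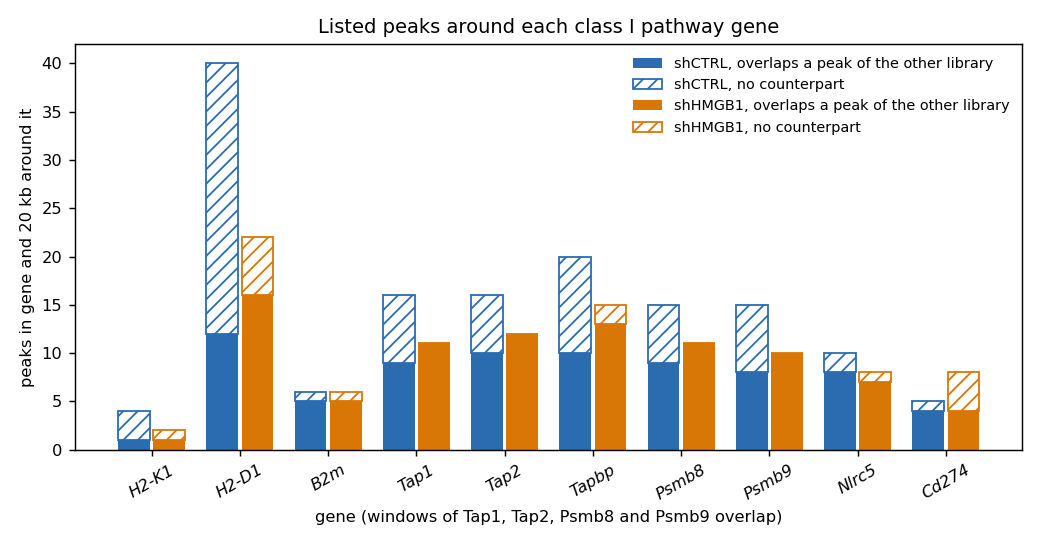
Number of listed peaks (vertical axis) in each gene and 20 kb around it (horizontal axis), in the single library of each line. Filled parts overlap a peak of the other library and hatched parts do not. H2-D1 has the most peaks, 40 in shCTRL and 22 in shHMGB1, and Cd274 is the single gene with more in shHMGB1 (5 and 8).

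Summits could be paired one to one within 150 bp at 94 distinct places around the genes. Their median ratio was -0.12, against -0.05 over 106962 pairs in the genome. The interval lay above 0 at 1 pair and below 0 at 6, while in the genome 4.28% lay above and 2.74% below. Of the 6, 3 were in the H2-D1 window (26 and 8, 25 and 10, and again 25 and 10 fragments), and the others were the sites outside Tap2, at Rgl2 and inside Nlrc5 given above. Among the 34 pairs with at least 40 fragments in sum, the median was 0.01, against 0.07 in the genome. Of these pairs 30 lay within 1.5-fold, but the share of such genome pairs within it is not given here. Of these 34, 1 interval lay above 0 and 2 below, with 8.14% and 3.98% in the genome.

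Nucleosome-free regions, stretches that the submitters listed apart from the peaks, were found at the starts of H2-K1, H2-D1 and B2m in both libraries. Among all coding genes 19.4% had one at the start in both libraries, 9.93% in shCTRL alone and 6.97% in shHMGB1 alone. At B2m the region was 297 bp wide in shCTRL and 272 bp in shHMGB1, and at H2-K1 196 and 232 bp. At H2-D1 it was 688 bp in shCTRL, from 35262956 to 35263643 and at percentile 99.0 of all widths there, and 173 bp in shHMGB1, from 35262959 to 35263131 and at percentile 53.7. The wider region reached past the site 537 bp inside the gene that held 25 fragments in shCTRL and 10 in shHMGB1 (-1.12, -2.34 to -0.01). Of 6506 overlapping pairs of regions in the genome 2.97% were at least 3 times as wide in shCTRL and 4.84% in shHMGB1. The mean occupancy, read as a fraction from the layout of the list, was 0.0859 in the wide region and 0.0182 in the narrow one.

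The cluster differed between the libraries in which region was listed. At the shared start of Psmb9 and Tap1 a region of 216 bp was listed in shHMGB1 alone, and before Psmb8 one of 304 bp in shCTRL alone, although both sites had peaks in both libraries. Tap2, Tapbp, Nlrc5 and Cd274 had none at a start in either, and Cd274 had none in its window. In all, the windows held 7 distinct regions in shCTRL and 8 in shHMGB1. How the regions were called is not given in the sources used here, so a missing region does not show a nucleosome.

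The genes that work with these 10 were mostly open in both libraries too. The share of all coding genes open in both was 52.9%. Pairs of values below are start-peak pileups in shCTRL and shHMGB1, and each list is led by its highest genes in shCTRL. Of 7 genes for loading and trimming 6 had start peaks in both, led by Pdia3 (104 and 83), whose product joins the loading complex, and Calr (79 and 67), the chaperone calreticulin, while Canx had none. Their median ratio was 0.22. All 5 genes of the immunoproteasome and its activators were open in both, led by Psme2 (72 and 90) and Pomp (68 and 69), with a median of 0.04 over 4 matched. Psme2, which encodes a subunit of the proteasome activator, stood at 0.53 (0.07 to 1.00), but relative to genes of its height at 0.39 (-0.07 to 0.86). The catalytic subunits that Psmb8, Psmb9 and Psmb10 replace were open in both at all 3 genes, led by Psmb6 (28 and 27) and Psmb5 (19 and 17), with a median of 0.12.

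All 16 regulator genes were open in both libraries, led by Nfya (187 and 198), a subunit of NF-Y, and Jak1 (142 and 126), a kinase of the interferon receptors. Their median was 0.05 and 0 of 16 intervals left out 0. Rela passed 1.5-fold with an interval that included 0 (20 and 28; 0.69, -0.19 to 1.6).

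Other class I genes were open in both libraries about as often as coding genes at large. Of 17 named 16 were in the annotation. Of these, 9 (56.25%) had start peaks in both, near the 52.9% of all coding genes, led by H2-M3 (82 and 69) and H2-T22 (65 and 60). H2-Q1 (13), H2-Q6 (13), H2-Q7 (16) and H2-M5 (11) had one in shCTRL alone, where the share of coding genes was 5.48%. In shHMGB1 alone 0 had one, where that share was 1.37%. Mr1, which presents microbial metabolites to MAIT cells and lies on chromosome 1, was named because it passed 1.5-fold with an interval leaving out 0. Its start summit held 39 and 68 fragments, with a log2 ratio of 1.01 (0.42 to 1.62), and set against genes of like height 0.98 (0.40 to 1.59). Of all coding genes 3.97% were at least 1.5-fold higher in shHMGB1. The interval lay above 0 at 6.08%, or at 2.6% when set against like height. H2-T3 (19 and 10; -0.72, -1.99 to 0.46) and Fcgrt (47 and 27; -0.59, -1.33 to 0.12) were at least 1.5-fold lower in shHMGB1, as were 8.4% of coding genes. Their intervals included 0. The list median was -0.16 over 8 matched genes.

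Class II genes, which present outside antigens in specialised cells, were open in both libraries less often than coding genes at large. For this list and the next, the shares of all coding genes were 52.9% open in both libraries and 40.2% in neither. A further 5.48% were open in shCTRL alone and 1.37% in shHMGB1 alone. Of 12 genes 3 had start peaks in both libraries, H2-DMa (42 and 25; -0.54, -1.32 to 0.21), H2-Eb1 and the class II coactivator gene Ciita. H2-Aa (13) and H2-Ab1 (13) had one in shCTRL alone, H2-DMb1 (11) in shHMGB1 alone, and 6 had none. Of 9 checkpoint ligand genes 6 were open in both, led by Nectin2 (108 and 89) and Pvr (97 and 79), Cd276 (16) was open in shCTRL alone and Cd86 and Pdcd1lg2 in neither, and the median was 0.15.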

How the data were processed

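ATAC-seq lists of 1 shCTRL and 1 shHMGB1 library were analysed. Groups were taken from the silencing label. Per the submitters' processing notes, the authors used Trimmomatic 0.32, BWA 0.7.5-r404, SAMtools, bedtools and MACS2 with mm10 (GRCm38). Not given in the sources used here are settings, read totals, any transposase shift and the caller of nucleosome-free regions. Deposited peak lists give a score (the whole part of 10 times −log10 q), a fold ratio, and −log10 p and −log10 q per summit. In the deposited region lists occupancy was read as a fraction and insertion and bias densities as signal, from layout and values.

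The folds advance in a single step, as (pileup + 1)/(expected + 1) gives. All 180632 and 156812 summits came out whole within 0.001. Depth beyond the expected pileup is unknown. Rows of 1 interval were merged to 104336 and 92282 peaks, which were called in each library apart and counted as shared from 1 bp of overlap. Start sites came from the RefSeq promoter table (8 of the 10 genes) or, without an entry, were both annotated ends. The highest summits within 150 bp of each other and 1 kb of a start were matched. Intervals were exact Poisson, Clopper-Pearson or conditional binomial. They cover counting error only, since each group is 1 library. No molecular identifiers mark the fragments, so even this counting error is uncertain. Scripts used Python 3.11.15, SciPy 1.17.1, pandas 2.3.3 and Biopython 1.88, and were tested on simulated data.

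No test between conditions was made. Named were all 10 genes; in related lists the genes open in 1 library, the 2 highest in shCTRL among those open in both and those past 1.5-fold with an interval leaving out 0; and in windows the highest summits and unshared peaks of at least 15 fragments. Genes and lists were chosen with earlier results of these data known, and other genes and sites after their values were seen. Alternatives were stricter q, other windows, overlaps, matching and scalings. H2-Bl was not in the table.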

Additional observations from a re-analysis of the deposited data

How the results depend on the processing

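All 10 genes kept a start peak in both libraries with 500 bp around the start, either annotated end or the whole gene with 1 kb around it. With a −log10 q of at least 5 there were 9 (Nlrc5 in shHMGB1 alone) and with at least 10 there were 8 (also without Tap2). Of coding genes at large, 51.0% had such peaks with 500 bp, 52.7% with either end and 64.9% with the whole gene. Their shares at the cutoffs of 5 and 10 were 48.1% and 42.3%. The median ratio of -0.03 was -0.03 with matching within 300 bp, 0.13 relative to genes of the same height, 0.04 with summits summed, and 0.49 relative to the background of each library, a scale on which all coding genes shift by 0.52. On that scale 5 genes, H2-K1, Tap1, Psmb8, Psmb9 and Nlrc5, passed 1.5-fold and H2-D1 stood at 0.44. The median coding gene, at 0.52, was itself close to the 1.5-fold mark of 0.585 there. The share of coding genes past that mark is not given here, so the count of 5 does not set these genes apart. Relative to height 1 gene passed, Nlrc5, against 5.04% of coding genes upward and 4.37% downward. Summing summits turned the sign at 5 genes, and 2 intervals then left out 0, those of H2-D1 (-0.43, -0.75 to -0.12) and B2m (0.39, 0.08 to 0.71). These intervals are too narrow, since summits share fragments.

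The counts of window peaks, 102 in shCTRL and 73 in shHMGB1, were 54 and 34 with a −log10 q of at least 5, 28 and 21 with at least 10, and 39 and 34 within 1 kb of the genes, since fewer peaks enter. Without the H2-D1 window, an alternative added on seeing the data, they were 62 and 51, and with a height of at least 5, also added, 68 and 55. The share with a counterpart, both lists held to the same cutoff, was 57.4% and 91.2% with a −log10 q of at least 5, 75.0% and 95.2% with at least 10, 61.6% and 82.5% within 10 kb, 61.3% and 82.4% without H2-D1, and 29.4% and 41.1% if 0.5 of each peak had to overlap. Shares over all peaks under these same rules are not given here, so these values have no genome reference. The ISRE core was found in 1 promoter and its shorter form, also added later, in 2. Regions within 10 kb numbered 7 and 6, and all 7 and 8 overlapped a peak of their library.

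No paired analysis was possible because each group is 1 library. Leaving out a replicate was not possible either. With 1 library a group and pileups of 14 to 94 fragments, the intervals of 9 of the 10 genes did not exclude a 1.5-fold difference both ways.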
